A study of Homo sapiens with 12 samples.

Results

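ATF4 and 9 genes known as its targets in the integrated stress response were followed as mRNAs in human adipocytes with and without knockdown (KD) of linc-ADAIN, a long intergenic non-coding RNA of fat cells. The genes were taken by symbol (ATF4, DDIT3, TRIB3, CHAC1, ASNS, PSAT1, PHGDH, SLC7A5, SLC7A11 and SESN2), and 10 of the 10 were found among the 28901 named genes of the table. The 12 libraries came from ASC52telo hTERT, a line of adipose stromal cells immortalized with telomerase, which had been infected with lentivirus carrying a scramble shRNA or a linc-ADAIN shRNA beside ZsGreen and sorted as pools of ZsGreen-positive cells. Each culture had 7 days of differentiation media and 7 days of maintenance media, and at day 14 received no lipopolysaccharide (LPS) or LPS at 100 ng/mL for 4 h. This gave 4 groups of 3 libraries: scramble, scramble with LPS, linc-ADAIN KD, and linc-ADAIN KD with LPS. The replicates were made within a single experiment, so p-values measure the spread between these cultures only. The level of linc-ADAIN itself is not analysed here, so the KD label was not checked against its target in these libraries.

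When a cell lacks amino acids, misfolds protein in the endoplasmic reticulum (ER), meets double-stranded RNA or lacks heme, a dedicated kinase phosphorylates the translation factor eIF2. Most protein synthesis then slows, while translation of ATF4, a basic leucine zipper (bZIP) factor, goes up. ATF4 pairs with C/EBP family factors on composite DNA elements and switches on genes for amino acid uptake and synthesis, tRNA charging and, under lasting stress, the factor CHOP. Because much of the control of ATF4 lies in translation, its mRNA is only part of its activity, and no protein was measured in these libraries.

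The element bound by ATF4 with a C/EBP partner holds the letters TGATGNAA, read as TTNCATCA on the opposite strand. RefSeq promoter windows (GRCh38.p14, from 250 bases before to 50 after each start) were searched for it on both strands. The motif was chosen after the expression values had been seen. It was in 1270 of 35116 windows, or 3.62%, and in at least 1 window of 4.46% of 27305 genes. Among the 9 members with a window, ASNS and CHAC1 had it (22.2%). The ASNS site at chr7:97872458-97872487 lies 68 bases before the RefSeq start of 1 of its 2 windows, and the CHAC1 site at chr15:40953251-40953280 lies 209 bases before the RefSeq start of its window. The GENCODE spans of both genes, given later, begin further upstream, so that both sites fall inside them. Both are shown because they are the members with the motif, and 6 further sites are shown from genes of the pathway described later: SLC1A4 (chr2:64989381-64989410), HERPUD1 (chr16:56931955-56931984), MARS1 (chr12:57488053-57488082), CARS1 (chr11:3057407-3057436), GARS1 (chr7:30594834-30594863) and ATF3 (chr1:212565205-212565234). Each is written 5′ to 3′ on the strand of its gene, with the match in capitals.
ASNS: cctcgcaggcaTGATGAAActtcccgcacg
CHAC1: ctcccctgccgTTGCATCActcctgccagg
SLC1A4: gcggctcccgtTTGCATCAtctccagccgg
HERPUD1: gacgcggcgggTTGCATCAgcccgtgccca
MARS1: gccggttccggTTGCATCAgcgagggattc
CARS1: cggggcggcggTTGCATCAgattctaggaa
GARS1: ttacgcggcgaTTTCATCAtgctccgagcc
ATF3: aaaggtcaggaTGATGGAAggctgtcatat
A match describes letters in a window and not binding. The 6 further genes shown rose in both KD comparisons. SLC1A5 and SLC7A1, whose windows also hold the motif, fell with KD without LPS, by 0.60 and 0.36 on the log2 scale. The sites shown are therefore no measure of how the motif goes with a rise. SLC7A11 had no window, and for the remaining members no match says only that these letters are absent from the windows searched.

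Counts on named genes totalled 28.4 to 53.8 M (in units of 1000000) per library, at 48.1 to 53.8 M in scramble and 28.4 to 50.5 M in the other groups. The labelled cell type was checked against marker genes. The summed level of 12 adipocyte markers was 3325 to 4570 CPM (counts per 1000000 counts of the library, scaled by TMM) in scramble, 3852 to 4466 in scramble with LPS, 664 to 1972 in KD and 538 to 1257 in KD with LPS. KD lowered 8 of the 12 without LPS and 10 of the 12 with LPS, and raised none of the 12. Of all genes tested, 15.1% were lower without LPS and 14.2% with LPS. FABP4 and ADIPOQ made up most of the sum in scramble, with means of 1981 and 919 CPM. LPL and LEP were near the floor, at no more than 23 and 21 counts in a scramble library. These falls run against the study's own qPCR and western blots of adipocytes with linc-ADAIN shRNA at day 14. There it reported more mRNA and protein of PPARγ, perilipin 1, FABP4, C/EBPα and adiponectin than with scramble, and more stored lipid. The cause of this difference was not tested. The sum of 9 stromal markers was 7069 to 8930 CPM in the scramble libraries with and without LPS and 10329 to 13245 CPM in the KD libraries. The list went both ways, with 5 markers higher and 3 lower in each KD comparison: without LPS, LUM rose by 2.02 and DCN by 0.88 on the log2 scale, while THY1 fell by 2.37, ENG by 1.36 and PDGFRB by 0.90. A sum of 7 macrophage markers was 4.66 to 7.63 CPM in scramble libraries and 57.2 to 87.3 CPM in KD libraries. CD163 made up most of it, with a mean of 4.33 CPM in scramble and 68.6 in KD, and it was the 1 marker called of 6 tested without LPS, while CD163 and CD14 were called with LPS. PTPRC had at most 12 counts in a library, and CSF1R a mean of 0.910 CPM in scramble and 0.893 in KD. LYZ had no counts in the KD libraries without LPS and MRC1 none in the scramble libraries with LPS. The part of these marker shifts in the results was not tested, and in bulk RNA fewer cells of a type cannot be told apart from less RNA per cell. All 6 LPS response genes rose with LPS under both shRNAs, which is a check of the LPS labels.

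KD without LPS raised 9 of the 10 genes and lowered SLC7A11. The genes passed edgeR's quasi-likelihood test at a Benjamini-Hochberg adjusted p under 0.05 in 10 of 10 cases, against 27.2% of the 16217 genes tested (12.1% higher, 15.1% lower). A rise of at least 2-fold was seen for 7 members, DDIT3, TRIB3, CHAC1, ASNS, PSAT1, SLC7A5 and SESN2, against 4.28% of all genes. The median log2 fold change of the members was 1.54, and that of all genes tested 0.02. The KD and scramble libraries did not overlap for 10 of 10 members, where 42.5% of all genes tested had no overlap. The members were chosen with earlier results of these data known, so none of these counts is independent evidence. SLC7A5 and SESN2 also stand in a list that the study drew from these libraries and crossed with mRNAs bound by IGF2BP2.

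KD in the presence of LPS gave the same 9 genes higher and SLC7A11 lower, with 10 members called in both KD comparisons with the same sign. Here 26.9% of 15981 genes passed the test (12.7% higher, 14.2% lower), and 4.58% were at least 2-fold higher, as were 7 members. The median log2 fold change was 1.63 among the members and 0.03 among all genes tested. Libraries of the groups did not overlap for 10 members and for 40.6% of all genes. The comparisons with and without LPS share no library, but they share the shRNAs and the experiment. The effect of knockdown cannot be told apart here from other differences between the cell pools carrying these shRNAs.

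**Figure D1:**
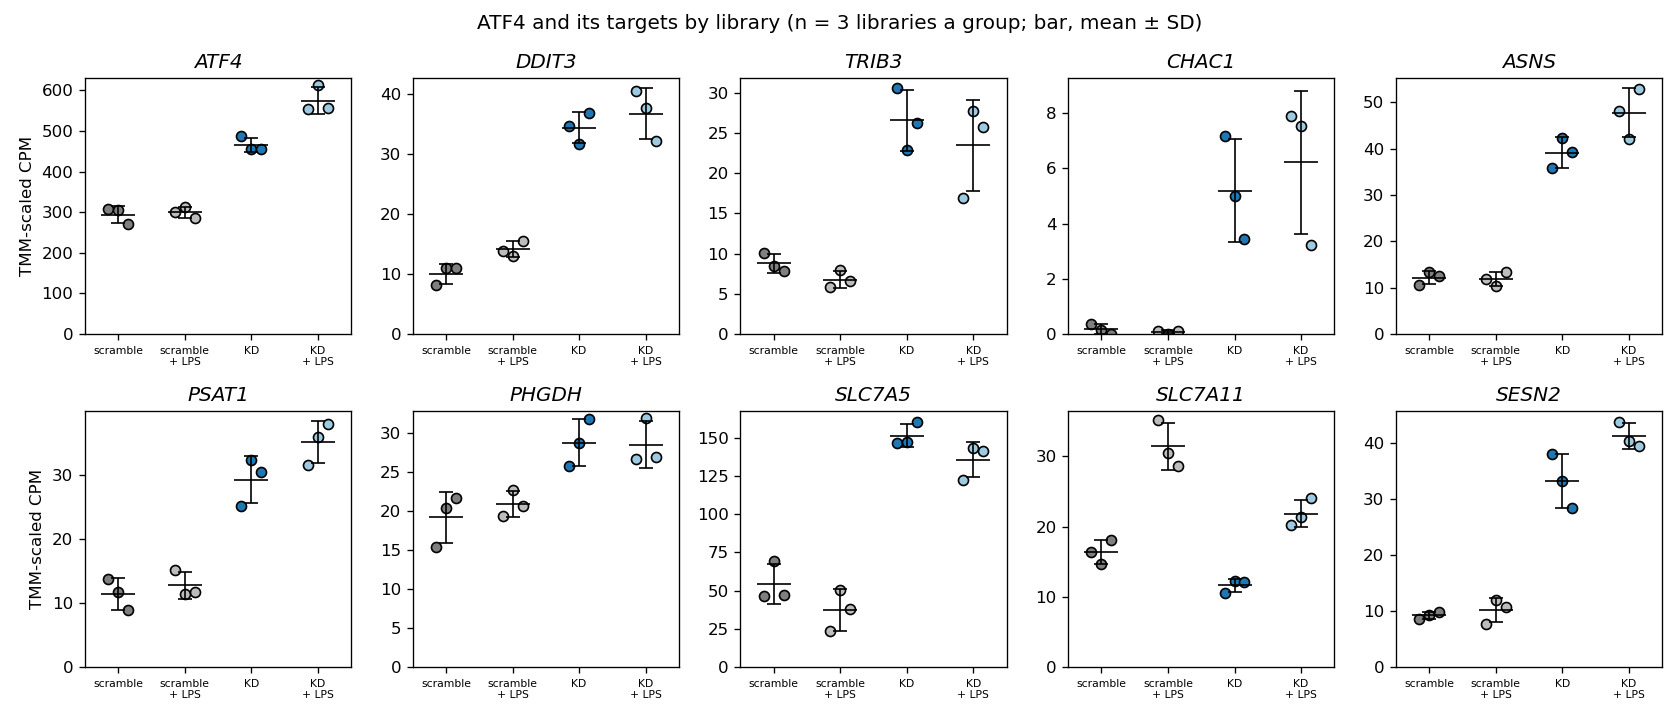
Level of each of the 10 genes in each library, as TMM-scaled CPM on linear axes from 0, with points for the 3 libraries of a group and bars for mean ± SD. The KD libraries (blue) lie above the scramble libraries (grey) at the same LPS condition in 9 panels, and below them for SLC7A11, whose highest values (28.6 to 35.2 CPM) are those of scramble with LPS.

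ATF4 (chr22:39519695-39522683, plus strand, GENCODE annotation of GRCh38) encodes the factor itself. Its level was 307, 305 and 271 CPM in scramble, 299, 313 and 286 in scramble with LPS, 487, 455 and 457 in KD, and 555, 612 and 557 in KD with LPS. The scramble groups overlapped, the KD libraries stood above both, and KD with LPS stood above KD. KD raised ATF4 by 0.67 ± 0.08 without LPS (log2 fold change ± SE, adjusted p = 4.8e-05) and by 0.94 ± 0.07 with LPS (adjusted p = 4.8e-07), which are 1.59-fold and 1.92-fold. These are among the smaller rises of the members, with PHGDH the other member that rose by less than 2-fold in both comparisons.

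DDIT3 (chr12:57516588-57521737, minus strand) encodes CHOP, the bZIP factor induced by ATF4 that is tied to cell death in prolonged ER stress. It measured 8.13, 11.05 and 10.96 CPM in scramble, 13.9, 13.0 and 15.6 in scramble with LPS, 34.7, 31.8 and 36.9 in KD, and 40.5, 37.7 and 32.2 in KD with LPS. The scramble groups did not overlap each other, and both KD groups lay above them while overlapping each other. KD raised DDIT3 by 1.78 ± 0.13 on the log2 scale without LPS (3.44-fold, adjusted p = 1.7e-06) and by 1.37 ± 0.12 with LPS (2.59-fold, adjusted p = 2.1e-06). Exons of DDIT3 overlap those of MARS1 on the opposite strand by 355 bases and those of MBD6 by 58 bases. Whether the pseudoalignment used strand is not stated, so part of the DDIT3 count cannot be told apart from MARS1, which held 2391 to 4654 counts in scramble libraries and 3974 to 7152 in KD libraries.

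TRIB3 (chr20:362835-397559, plus strand) encodes a pseudokinase that is induced by ATF4 with CHOP and feeds back on both. Its level was 7.82 to 10.1 CPM in scramble, 5.83 to 7.93 in scramble with LPS, 22.9 to 30.6 in KD and 17.0 to 27.7 in KD with LPS. Neither shRNA group overlapped the other, and the groups with and without LPS overlapped under each shRNA. TRIB3 rose 3.03-fold with KD (log2 1.60 ± 0.14, adjusted p = 6.8e-06), and 3.47-fold with KD in the presence of LPS (log2 1.80 ± 0.19, adjusted p = 9.6e-06).

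CHAC1 (chr15:40952962-40956512, plus strand) encodes an enzyme that breaks down glutathione, and it had the widest range of the members. It was close to undetected with scramble shRNA, at 19, 8 and 0 counts in the scramble libraries and 5, 0 and 5 with LPS. KD libraries held 249, 269 and 139 counts, and KD libraries with LPS 279, 351 and 92. All KD libraries were above all scramble libraries, and replicate 3 was the lowest of the KD group and of the KD group with LPS. In CPM the means were 0.171 ± 0.181 (SD, n = 3), 0.0817 ± 0.0709, 5.20 ± 1.88 and 6.23 ± 2.60 in scramble, scramble with LPS, KD and KD with LPS. The log2 fold change with KD was 4.88 ± 0.67 without LPS (adjusted p = 0.00019) and 6.10 ± 0.59 with LPS (adjusted p = 4.2e-06). With so few counts in the scramble libraries the size of these folds is imprecise, and leaving out a library moved it from 4.32 to 5.99 without LPS and from 5.63 to 6.47 with LPS.

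The genes closest to CHAC1 in their 3 differences of group means from scramble, among 11801 candidates averaging 50 counts or more per library, were PSG4, PCSK2, NTN1, LCP1 and GDA, at distances of 0.68 to 1.18 in log2 CPM. PCSK2, which encodes a prohormone convertase, was 6.01 higher in KD and 6.43 higher in KD with LPS than in scramble on that scale. The corresponding differences of CHAC1 were 5.85 and 6.07. This likeness describes 4 group means and was not tested. A scramble library had 0 CHAC1 counts, so the differences of CHAC1 depend on the small offset added before taking logs. The edgeR log2 fold change of CHAC1 with KD without LPS was 4.88, so the distances are imprecise.

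**Figure D2:**
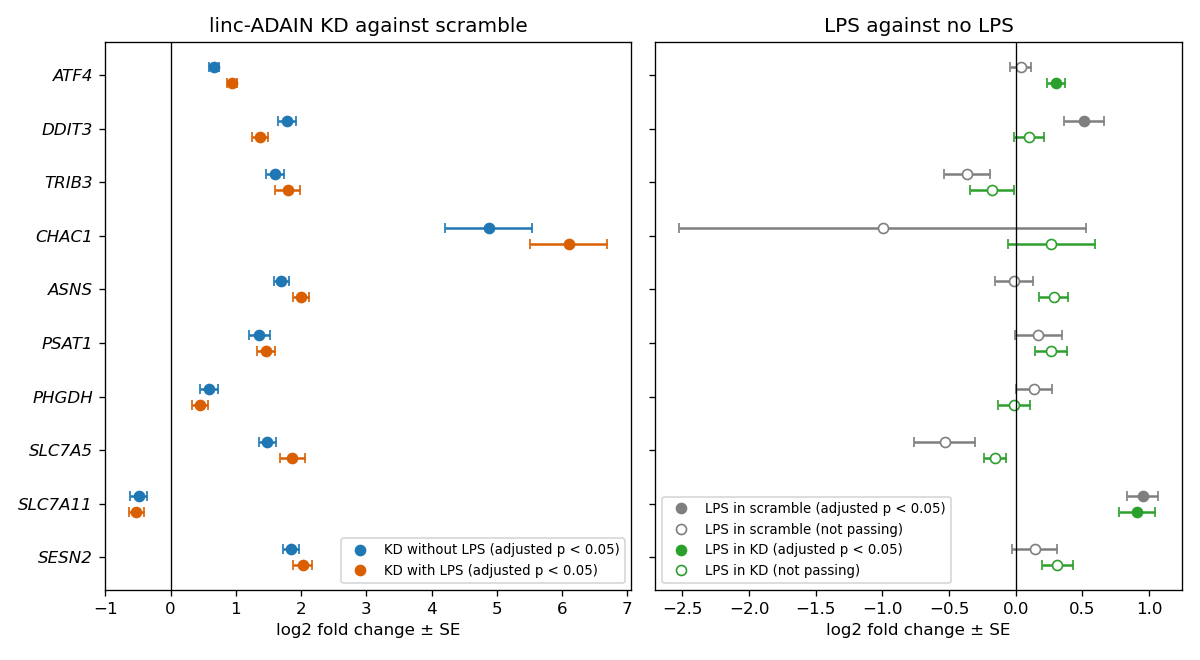
Log2 fold change with standard error of each gene, with KD against scramble on the left (without LPS, blue, and with LPS, orange) and LPS against no LPS on the right (in scramble, grey, and in KD, green). Filled points passed an adjusted p under 0.05, and CHAC1 reaches 4.88 and 6.10 on the left while SLC7A11 lies at -0.49 and -0.53.

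Among the genes of amino acid synthesis, ASNS (chr7:97851677-97872542, minus strand) encodes asparagine synthetase, a long-studied ATF4 target. Its level was 10.6, 13.3 and 12.5 CPM in scramble, 11.9, 10.4 and 13.4 in scramble with LPS, 35.9, 42.4 and 39.3 in KD, and 48.2, 42.2 and 52.8 in KD with LPS. The libraries fell into a low scramble range and a high KD range, with overlap by LPS inside each. ASNS rose 3.24-fold with KD (log2 1.70 ± 0.12, adjusted p = 8.3e-07), and 4.00-fold with LPS present (log2 2.00 ± 0.13, adjusted p = 7.1e-08). A readthrough lncRNA on the same strand covers the ASNS exons in the annotation.

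PHGDH, PSAT1 and PSPH encode the consecutive enzymes that make serine from a glycolytic intermediate. PSAT1 (chr9:78297125-78330093, plus strand) measured 8.85 to 15.2 CPM over both scramble groups and 25.1 to 38.0 over both KD groups. It rose 2.57-fold (log2 1.36 ± 0.16, adjusted p = 5.6e-05) and 2.75-fold (1.46 ± 0.14, adjusted p = 2.9e-06) with KD without and with LPS. PHGDH (chr1:119648411-119744218, plus strand), the entry enzyme, moved less, from 15.4 to 22.7 CPM in the scramble groups to 25.8 to 31.9 in the KD groups. Its log2 fold change was 0.59 ± 0.14 without LPS (adjusted p = 0.0070) and 0.45 ± 0.12 with LPS (adjusted p = 0.012). Without KD with LPS replicate 2 the latter was 0.35, with an adjusted p of 0.067. PSPH, named after its values were seen, rose by 0.46 ± 0.12 without LPS (adjusted p = 0.013) and measured 0.37 ± 0.13 with LPS (adjusted p = 0.055). The former missed the threshold without scramble replicate 2 or 3 (adjusted p = 0.069 and 0.056), and the latter passed in 4 of 7 fits with other processing (adjusted p = 0.020 to 0.065 over the 7).

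The transporters moved apart. SLC7A5 (chr16:87830023-87869507, minus strand) encodes LAT1, the exchanger that brings in leucine and other large neutral amino acids. It measured 46.5, 69.2 and 47.3 CPM in scramble, 23.5, 50.6 and 37.9 in scramble with LPS, 147, 147 and 160 in KD, and 123, 143 and 141 in KD with LPS. Every KD library was above every scramble library, and the KD group without LPS was above KD with LPS. KD raised SLC7A5 by 1.48 ± 0.13 on the log2 scale without LPS (2.80-fold, adjusted p = 7.7e-06) and by 1.86 ± 0.20 with LPS (3.64-fold, adjusted p = 8.8e-06). SLC3A2, which encodes the heavy chain shared by the SLC7A5 and SLC7A11 proteins, rose by 0.99 ± 0.07 and 0.88 ± 0.09 on the log2 scale (adjusted p = 1.2e-06 and 5.2e-06).

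SLC7A11 (chr4:138164097-138242349, minus strand) encodes xCT, which takes up cystine for glutathione synthesis in exchange for glutamate. It was the member that KD lowered. Its level was 16.4, 14.7 and 18.0 CPM in scramble, 35.2, 30.5 and 28.6 in scramble with LPS, 10.5, 12.3 and 12.1 in KD, and 20.2, 21.4 and 24.0 in KD with LPS. No groups overlapped, in the rising order KD, scramble, KD with LPS, scramble with LPS. SLC7A11 fell by 0.49 ± 0.13 on the log2 scale with KD without LPS (adjusted p = 0.014) and by 0.53 ± 0.12 with LPS (adjusted p = 0.0046). Without scramble replicate 3 the former was -0.42, with an adjusted p of 0.058. An antisense transcript, SLC7A11-AS1, overlaps its exons in the annotation.

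SESN2 (chr1:28259518-28282491, plus strand) encodes sestrin 2, a leucine sensor that restrains mTORC1, the kinase complex that drives growth. It measured 8.60, 9.32 and 9.82 CPM in scramble, 7.72, 11.9 and 10.8 in scramble with LPS, 37.9, 33.1 and 28.4 in KD, and 43.8, 40.3 and 39.3 in KD with LPS. The scramble groups overlapped, and the KD groups were above them without overlapping each other. KD raised SESN2 3.59-fold without LPS (log2 1.85 ± 0.13, adjusted p = 8.9e-07) and 4.07-fold with LPS (log2 2.03 ± 0.15, adjusted p = 2.5e-07). The other two sestrin genes, named after their values were seen, did not share this. SESN3 fell by 0.81 ± 0.18 and by 1.21 ± 0.14 on the log2 scale (adjusted p = 0.0055 and 2.1e-05), while SESN1 measured -0.05 ± 0.17 and 0.02 ± 0.15 (adjusted p = 0.86 and 0.94).

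Per kilobase of the canonical transcript, ATF4 had the highest level of the members in each group, at 207 ± 14.0 CPM per kb in scramble and 405 ± 22.9 in KD with LPS (SD, n = 3). The next in scramble was SLC7A5 at 11.9 ± 2.82 CPM per kb, which overlapped DDIT3 at 11.1 ± 1.84. In KD the next was DDIT3 at 38.1 ± 2.83 CPM per kb, beside SLC7A5 at 33.2 ± 1.71. The lowest mean was that of CHAC1 in both scramble groups and of SLC7A11 in both KD groups. In KD with LPS, SLC7A11 at 2.09 to 2.49 CPM per kb overlapped CHAC1 at 2.13 to 5.19. The canonical transcript of SLC7A11, at 9645 bases, is the longest of the members, which lowers its level per kb.

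**Figure D3:**
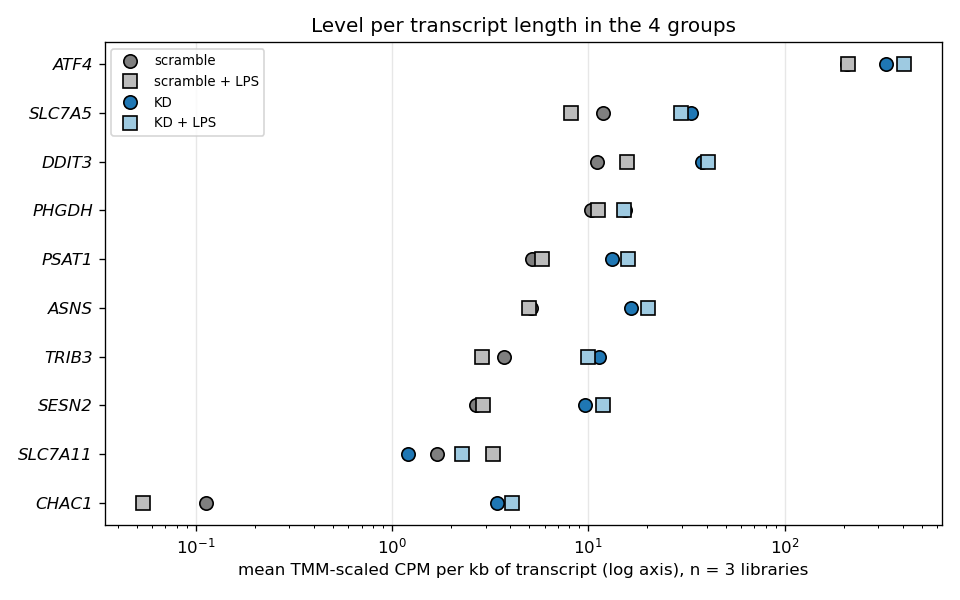
Mean level of each gene per kilobase of transcript (CPM per kb, n = 3 libraries) in the 4 groups on a log axis, ordered by the level in scramble. ATF4 lies at 207 to 405 CPM per kb, above all other members, and CHAC1 shows the widest gap between the scramble groups (grey) and the KD groups (blue).

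The LPS comparisons asked how the members responded to LPS under each shRNA. In scramble, 2 of 10 passed the test, both higher, against 14.3% of 15920 genes (5.9% higher, 8.38% lower). In KD, 2 of 10 passed, both higher, against 11.3% of 16169 genes (5.32% higher, 6.03% lower). With 10 members these counts are near the background. The libraries with and without LPS did not overlap for 2 members in scramble and 4 in KD, where 32.1% and 27.3% of all genes did not. These comparisons share libraries with the KD comparisons. SLC7A11 rose under both shRNAs, by 0.95 ± 0.12 in scramble (1.93-fold, adjusted p = 0.00020) and by 0.91 ± 0.13 in KD (1.88-fold, adjusted p = 0.00035). DDIT3 rose by 0.51 ± 0.15 in scramble (adjusted p = 0.040), a call that was lost in fits without any of scramble replicates 1, 2 and 3 or of scramble with LPS replicates 1 and 3 (adjusted p = 0.053 to 0.15), and in KD it measured 0.10 ± 0.11 (adjusted p = 0.69). ATF4 rose by 0.30 ± 0.07 in KD (adjusted p = 0.0086) and measured 0.04 ± 0.08 in scramble (adjusted p = 0.81). SLC7A5 measured -0.53 ± 0.23 in scramble (adjusted p = 0.16), and without scramble with LPS replicate 2 it was -0.81 with an adjusted p of 0.042.

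Whether the LPS effect differed between the shRNAs was tested as the interaction over the 12 libraries. By edgeR 0 of 10 members passed, against 1.28% of 17173 genes, and by DESeq2 0 of 10. At an unadjusted p under 0.05 there were 2 members, ATF4 with an interaction of 0.28 ± 0.10 (adjusted p = 0.27) and DDIT3 with -0.40 ± 0.18 (adjusted p = 0.42). The interaction of SLC7A11 was -0.03 ± 0.17. For CHAC1 its standard error of 1.02 leaves a wide range of differences possible.

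The wider pathway was read from 8 lists of 103 genes, which were also chosen with earlier results of these data known. Of the 102 tested without LPS, KD raised 39 and lowered 15, and of the 101 tested with LPS it raised 44 and lowered 9. The shares to set beside these are the 12.1% higher and 15.1% lower of all genes without LPS, and 12.7% and 14.2% with LPS. Scaling by library size alone gave 51 higher and 9 lower without LPS, and 49 and 5 with LPS. That scaling moved all genes upward, with 2793 called higher and 1757 lower without LPS, and 2609 and 1796 with LPS. By TMM these were 1965 and 2446 without LPS, and 2026 and 2266 with LPS. The counts of single lists under library size scaling, given below, are to be read beside this shift. The median log2 fold change of the lists together was 0.20 without LPS and 0.23 with LPS, well under that of the 10 members.

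Among the 14 genes of the eIF2 kinases, phosphatase subunits, eIF2 and eIF2B, 1 rose and 2 fell without LPS, and 2 rose and 2 fell with LPS. These counts are near the shares of all genes, which were 12.1% higher and 15.1% lower without LPS, and 12.7% and 14.2% with LPS. PPP1R15A encodes GADD34, the inducible subunit that brings a phosphatase back to eIF2. It rose by 0.97 ± 0.11 on the log2 scale without LPS (adjusted p = 6.0e-05) and by 1.21 ± 0.09 with LPS (adjusted p = 3.1e-07). EIF2B3, a subunit of the exchange factor for eIF2, fell by 0.41 ± 0.10 without LPS (adjusted p = 0.0075) and measured -0.18 ± 0.13 with LPS (adjusted p = 0.36). EIF2S2, the beta subunit of eIF2, measured 0.16 ± 0.08 (adjusted p = 0.14) and 0.38 ± 0.08 (adjusted p = 0.0038). The interactions of EIF2B3 and EIF2S2 did not pass (adjusted p = 0.65 and 0.49). Scaling by library size alone gave 3 of this list higher and 1 lower without LPS.

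Of 9 bZIP and related partner genes, 3 rose without LPS and 5 with LPS, and none of the 9 fell. NUPR1, a small stress-induced chromatin factor, rose 2.65-fold and 3.35-fold (log2 1.40 ± 0.11 and 1.74 ± 0.14, adjusted p = 1.8e-06 and 7.5e-07). ATF3, a repressor induced by many stresses, rose 2.24-fold and 2.59-fold. It also rose with LPS, by 0.88 ± 0.19 in scramble and 1.08 ± 0.16 in KD. CEBPB, a partner of ATF4, measured 0.28 ± 0.10 without LPS (adjusted p = 0.056) and rose by 0.68 ± 0.09 with LPS (adjusted p = 5.5e-05). The former passed in 6 of 7 fits with other processing (adjusted p = 0.013 to 0.054 over the 7, 0.026 under DESeq2), and also without scramble replicate 1 or KD replicate 3 (adjusted p = 0.042 and 0.020). The interaction of CEBPB was 0.40 ± 0.14 and did not pass (adjusted p = 0.20).

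Of 10 other amino acid synthesis and one-carbon genes, 6 rose and 1 fell without LPS, and 4 rose and 1 fell with LPS. The mitochondrial one-carbon enzymes MTHFD2 and SHMT2 rose by 0.68 ± 0.10 and 0.56 ± 0.08 without LPS, and by 0.68 ± 0.09 and 0.67 ± 0.08 with LPS. CBS, which starts the route from homocysteine to cysteine, fell by 0.63 ± 0.11 (adjusted p = 0.00095) and by 0.94 ± 0.26 (adjusted p = 0.017). Without scramble with LPS replicate 2 the latter had an adjusted p of 0.059.

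Of the other amino acid transporters, 6 of 9 rose and 2 fell without LPS, and 6 of 8 rose and 1 fell with LPS. SLC1A4, a carrier of serine and other small neutral amino acids, rose 3.49-fold and 2.83-fold (adjusted p = 5.7e-07 and 8.7e-07). SLC38A2 encodes SNAT2, a sodium-coupled carrier known to respond to amino acid lack. It rose by 0.70 ± 0.08 without LPS and by 1.14 ± 0.08 with LPS, with an interaction of 0.44 ± 0.11 that did not pass (adjusted p = 0.057). SLC38A2 fell by 0.59 ± 0.08 with LPS in scramble (adjusted p = 0.00045) and measured -0.15 ± 0.07 in KD (adjusted p = 0.24).

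Among 19 genes of tRNA charging, 9 rose and 1 fell without LPS, and 7 rose and 2 fell with LPS, none of them by 2-fold. The smallest adjusted p values were those of the glycine, methionine and cysteine enzymes. GARS1 rose by 0.69 ± 0.07 and 0.77 ± 0.07, MARS1 by 0.63 ± 0.07 and 0.77 ± 0.08, and CARS1 by 0.53 ± 0.08 and 0.69 ± 0.09. Scaling by library size alone gave 12 higher and 0 lower without LPS.

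Of 14 other known ATF4 targets tested, 8 rose and 2 fell in each KD comparison. Genes with the smallest adjusted p are described next, but others of the list were lower. SESN3 fell, as given above, and VEGFA averaged 476 CPM in scramble and 326 in KD, and 251 and 183 with LPS. DDIT4, or REDD1, which like sestrin 2 restrains mTORC1, rose 4.79-fold and 5.36-fold (log2 2.26 ± 0.17 and 2.42 ± 0.15, adjusted p = 1.5e-06 and 6.0e-08). STC2, a secreted glycoprotein, measured 15.4 to 22.2 CPM in scramble, 9.96 to 13.0 in scramble with LPS, 72.7 to 98.9 in KD and 85.5 to 114 in KD with LPS. It rose 4.62-fold without LPS and 9.12-fold with LPS (log2 2.21 ± 0.14 and 3.19 ± 0.13). NDRG1, a stress-responsive gene, rose by 0.80 ± 0.09 and 0.89 ± 0.09.

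The ATF6 and XBP1 arms of the ER stress response, which act beside ATF4, were read from 19 genes. Without LPS 6 rose and 7 fell, and with LPS 9 rose and 1 fell, with list medians of -0.13 and 0.19 on the log2 scale. The split without LPS depends on scaling, since library size alone gave 8 higher and 3 lower. Genes with the smallest adjusted p are described next, but others of the list were lower. Without LPS, CALR averaged 1232 CPM in scramble and 944 in KD, and PDIA3 891 and 714. HERPUD1, a helper of ER-associated degradation, rose 3.42-fold and 4.20-fold (log2 1.77 ± 0.09 and 2.07 ± 0.13), and DNAJB9, an ER chaperone partner, 2.18-fold and 2.57-fold. MANF, a secreted ER stress protein, measured 0.21 ± 0.08 without LPS (adjusted p = 0.086) and rose by 0.67 ± 0.08 with LPS. Its interaction of 0.46 ± 0.11 did not pass (adjusted p = 0.057). Of 8 mitochondrial stress genes 0 passed without LPS and 3 with LPS, the protease LONP1 (0.41 ± 0.10) and the chaperones HSPA9 (0.23 ± 0.07) and HSPE1 (0.27 ± 0.09). The call of HSPA9 was lost in each fit with a library left out except that without scramble with LPS replicate 3 (adjusted p = 0.054 to 0.079), and that of HSPE1 in each except that without scramble with LPS replicate 1 (adjusted p = 0.076 to 0.17). Without LPS these measured 0.14, 0.19 and 0.22, with adjusted p of 0.25, 0.072 and 0.10. HSPA9 passed there under DESeq2 (adjusted p = 0.020), HSPE1 without KD replicate 3 (adjusted p = 0.016), and scaling by library size alone called 3 of the 8. The interactions of LONP1, HSPA9 and HSPE1 did not pass (adjusted p = 0.43, 0.96 and 0.98).

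**Figure D4:**
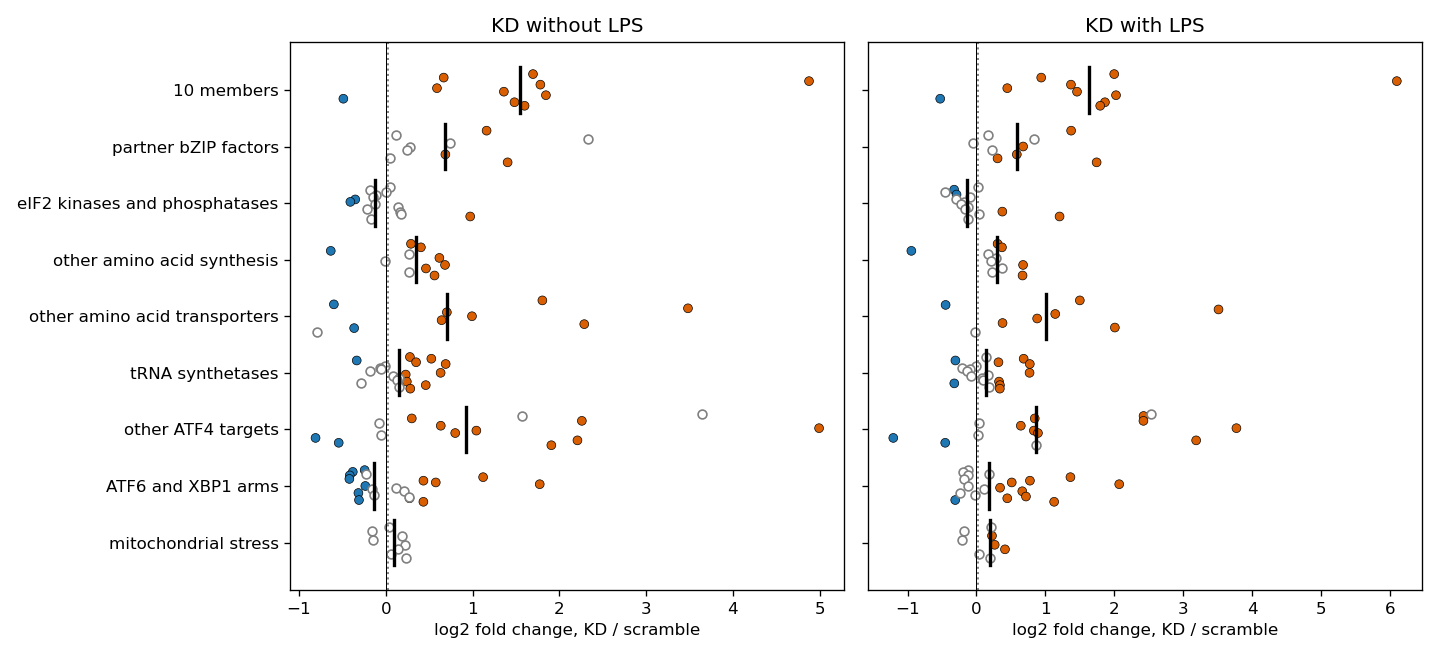
Log2 fold change with KD of the 10 members and of the genes in 8 lists of the wider pathway, without LPS (left) and with LPS (right), with points for genes, filled where the adjusted p was under 0.05 (orange higher, blue lower) and open otherwise. The black bars are list medians, the dotted line is the median of all genes (0.02 and 0.03), and the members' median lies at 1.54 and 1.63.

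Promoter windows were matched for 83 of the 103 genes of the wider lists, and 19 of them (22.9%) held TGATGNAA on either strand, a share near that of the members. Of the 20 genes with the motif that were tested, members included, 14 were higher and 2 lower with KD without LPS, with a median log2 fold change of 0.58. Of 71 without it, 26 were higher and 10 lower, with a median of 0.18. With LPS the counts were 12 higher and 1 lower of 20, and 34 higher and 5 lower of 71. SLC1A5, a glutamine carrier whose window holds the motif, was among those that fell without LPS, by 0.60 on the log2 scale. These counts are a description, since the motif was chosen after values were seen and several of the lists were assembled from genes known to be ATF4 targets.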

How the data were processed

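RNA-seq was read in 12 libraries made with a stranded polyA kit. Per the submitters' processing notes, the authors used bcl2fastq 2.19, kallisto 0.44.0 on GRCh38 and DESeq2 1.32.0. They deposited estimated counts summed per gene name, unscaled and given as whole numbers, and these were rounded. The annotation release is not given in the sources used here. A row without a gene name (0.235% to 0.306% of counts) was left out. In R 4.3.3, genes with at least 10 counts over the libraries of a fit were scaled by TMM and tested by edgeR 4.0.16 (quasi-likelihood F test, Benjamini-Hochberg over all genes tested). SE is the size of the log2 fold change divided by the square root of F. Group comparisons used 6 libraries and the interaction 12. Scripts were tested on simulated data. Alternatives were DESeq2 1.42.0, other scalings and filters, a 12-library fit, a replicate block and leaving out each library. The members and lists were chosen with earlier results of these data known. From each wider list, at most 3 genes with the smallest adjusted p among those called in a KD comparison were named, plus PSPH, SESN1 and SESN3. SLC1A5, SLC7A1, VEGFA, CALR, PDIA3 and the nearest-pattern gene described were picked after values were seen. Intervals cover no variation between experiments.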

Additional observations from a re-analysis of the deposited data

Results flagged for a closer look

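STC2 differed in its response to KD between LPS conditions, by the test of the difference itself. It was the 1 gene called of the 102 wider list genes tested, a share near the 1.28% of all 17173 genes. The interaction of KD with LPS was 0.98 ± 0.20 on the log2 scale (edgeR's quasi-likelihood test, adjusted p = 0.021), with LPS changing STC2 by -0.74 ± 0.16 in scramble (adjusted p = 0.0079) and by 0.23 ± 0.12 in KD (adjusted p = 0.28). The interaction kept its direction in the 12 fits that each left out a library, from 0.84 to 1.11, and missed the threshold in 7 of them, with adjusted p of 0.053 to 0.066. These were the fits without scramble replicate 1 or 2, scramble with LPS replicate 1 or 3, KD replicate 1, or KD with LPS replicate 2 or 3.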

How the results depend on the processing

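For the 10 members in the KD comparisons, 258 of 260 values kept their direction and their side of the threshold over DESeq2, other scalings and filters, the fit of all 12 libraries, the replicate block and each library left out. The exceptions were SLC7A11 without scramble replicate 3 and PHGDH without KD with LPS replicate 2, where the count of members called was 9, so that it ranged from 9 to 10 in both KD comparisons when a library was left out. In scramble, the count called with LPS was 1 under library size scaling (DDIT3 0.47, adjusted p = 0.054) and 1 to 3 when a library was left out, with 3 without scramble with LPS replicate 2. Library size scaling shifted the median of all genes by 0.10 in KD without LPS. In the interaction, 3 wider list genes were called by DESeq2 and 5 without a filter, against 1. Of all genes tested, these fits called 2.77%, 2.17% and 1.28%, in the same order. SLC7A5 with LPS in scramble passed without a filter (-0.53, adjusted p = 0.041). Changes of sign were seen in values that had not passed the test. Library size scaling alone gave -0.0016 for ATF4 with LPS in scramble and 0.049 for SESN1 with KD. Over the fits without 1 library, values ran with LPS in scramble from -0.016 to 0.072 for ATF4, -0.11 to 0.073 for ASNS and -1.56 to 0.13 for CHAC1. With LPS in KD they ran from -0.10 to 0.057 for PHGDH and -0.31 to 0.0088 for TRIB3, and in the interaction from -0.052 to 0.26 for PSAT1 and -0.11 to 0.057 for SLC7A11. SESN1 ran from -0.14 to 0.073 with KD without LPS and from -0.092 to 0.11 with LPS. The cause was not tested.

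The methods name no pairing of samples with the same replicate number. Their deviations from group means correlated at -0.024 to 0.047, with 0 of 3 pairs over 0.1 in each comparison. So few pairs cannot exclude a pairing. With the replicate number as a block 10 members were called in both KD comparisons, 3 with LPS in scramble (SLC7A5 at -0.57, adjusted p = 0.00048) and 2 with LPS in KD. Of all genes, the block fit called 20.5% with LPS in scramble against 14.3% in the main fit, and 13.8% against 11.3% with LPS in KD. For KD it called 29.0% against 26.9% with LPS, and 23.8% against 27.2% without LPS. CHAC1 had too few counts in scramble libraries to pass filterByExpr in that LPS comparison. Its low counts limit its folds most.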
